A study of Mus musculus with 11 samples.

Results

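The data on 9 transcription factor genes of the limb ectoderm were examined in mouse forelimb buds at E10.5: the distal-less genes Dlx1, Dlx2, Dlx3, Dlx5 and Dlx6, the Sp family genes Sp6, Sp8 and Sp9, and En1. They were chosen by name, and all 9 of 9 were among the 47517 rows of the count table. RNA-seq libraries came from 5 control and 6 mutant samples of 4 litters, called A to D here. Mutants carried 2 floxed alleles of Gmnn (Gmnn f/f; Prx-Cre), and controls carried 1 floxed and 1 wild-type allele (Gmnn +/f; Prx-Cre), so that every sample had Prx-Cre and at least 1 floxed allele, on a C57BL/6 background. Of the controls, numbers 1 and 2 came from litter A and numbers 3, 4 and 5 from B, C and D in that order. Of the mutants, numbers 1 and 2 came from litter A, 6 from B, 5 from C, and 3 and 4 from D. Gmnn encodes Geminin, which binds Cdt1 and blocks the licensing of replication origins. Prx-Cre expresses Cre recombinase in limb bud mesenchyme. The genes described here are known from the ectoderm, a tissue that this transgene does not target and that lies next to mutant mesenchyme. The libraries are of whole buds, and which cells the reads of each gene came from was not tested. Embryos were matched by litter and by somite number, and the labels do not say whether a library holds 1 embryo or a pool.

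The apical ectodermal ridge is a strip of thickened ectoderm along the rim of the limb bud. It secretes Fgf proteins that keep the mesenchyme beneath it growing. Sp6 and Sp8 are zinc finger factors that act together in the ectoderm to keep Fgf8 on, and Sp9 is a related ridge gene. Dlx genes encode homeodomain proteins, and Dlx5 and Dlx6 are needed in the ridge for normal hand and foot formation. En1 is a homeodomain repressor of the ventral ectoderm; it keeps Wnt7a, the dorsal ectodermal signal, out of the ventral side and helps to place the ridge.

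Control libraries held 14777833 to 19733288 counted reads, and mutant libraries 14721181 to 17034741. Gmnn fell by 0.67 on the log2 scale in mutants (SE 0.10; adjusted p 0.0291 in edgeR's quasi-likelihood test), and its levels did not overlap between the groups. Forelimb Tbx5 stood at 64.8 to 122.9 CPM (counts scaled to a common library size) in all 11 libraries. Hindlimb Pitx1 was at 0 to 0.595 CPM in 10 libraries and at 4.07 CPM in control 2, and hindlimb Tbx4 at 0.561 CPM (control 5) to 6.11 CPM (control 3), with 2.73 CPM in control 2. Both were singled out after their values were seen. Epcam, a defining ectoderm gene, was at 23.5 to 41.9 CPM in all 11 libraries. In whole buds fewer ectodermal cells and less RNA per cell cannot be told apart.

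Compared per length of exon, in CPM per kb, the 9 genes spanned a wide range. Sp8 was by far the most abundant, at a mean of 23.6 CPM per kb over the 11 libraries (range 15.2 to 37.6). Its lowest library lay above the highest library of the next gene, Dlx5, at 6.07 CPM per kb (3.34 to 8.51). Dlx3 followed at 3.67 CPM per kb (2.62 to 5.17) and En1 at 3.16 CPM per kb (1.21 to 5.14), and the ranges of Dlx5, Dlx3 and En1 overlapped. Dlx2 at 1.02 and Dlx1 at 0.957 CPM per kb could not be ordered, since their ranges coincided. Dlx6 at 0.286 CPM per kb (0.165 to 0.536) lay below every library of Dlx1, and Sp9 at 0.0770 CPM per kb (0.0236 to 0.195) overlapped the bottom of Dlx6. Sp8 was also above the mean level per kb of all 13 genes of a ridge list, Bmp7 (13.4 CPM per kb) being the nearest and Fgf8 standing at 8.20, and above 16 of 18 surface ectoderm genes.

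**Figure D1:**
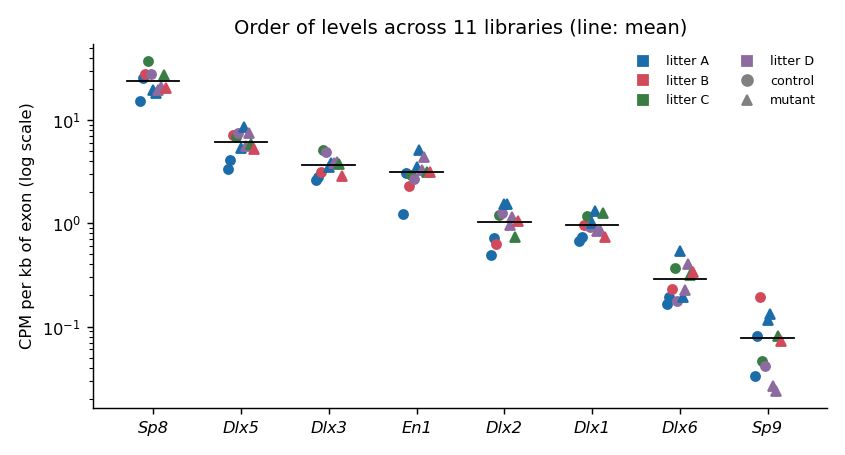
Level of 8 of the genes in each library, in CPM per kb of exon on a log axis, with circles for controls, triangles for mutants, colours for litters and a line at the mean. Sp8 sits apart at the top (15.2 to 37.6), Dlx5, Dlx3 and En1 overlap below it, and Dlx6 and Sp9 are lowest; Sp6, with 4 reads in all, is not drawn.

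Of the 9 genes, 8 had enough reads to be tested, and none passed an adjusted p of 0.05 between mutants and controls (quasi-likelihood test in edgeR, blocked by litter and adjusted over 15821 genes by Benjamini-Hochberg). Over all genes tested 2.18% passed, 0.702% higher and 1.48% lower in mutants. At an unadjusted p under 0.05 there were 2 of the 8, En1 (higher) and Sp8 (lower), against 21.4% of all genes. The same 2 were the only members with 1 direction in all 4 litters, a property of 26% of all genes. Of the 8, 6 had a fold change above 0 and 2 below it; their median log2 fold change was 0.17, and that of all genes was 0.00. DESeq2 gave no adjusted p for Dlx6 and Sp9, and none of the others passed with it, En1 at an adjusted p of 0.0635 and Sp8 at 0.0723. Counts of calls over all genes moved from 345 (111 higher, 234 lower) to 1566 with no filter on low counts, where En1 and Sp8 passed, and to 1 without control 4 or mutant 5.

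**Figure D2:**
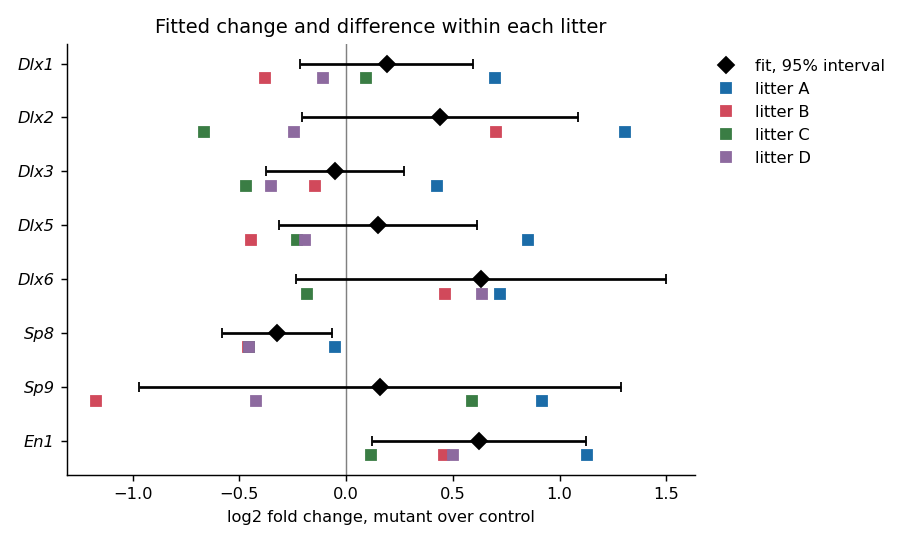
Log2 fold change of mutants over controls for the 8 genes tested (black diamond with the 95% interval of the fit) and the difference of mean log2 CPM within each litter (coloured squares). En1 is above 0 and Sp8 below 0 in all 4 litters, the squares of litters B, C and D coinciding for Sp8 near -0.46, while the Dlx genes fall on either side.

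En1 was the only one of the 8 genes tested whose groups did not overlap. Controls 1 to 5 had 3.19, 7.98, 6.00, 7.61 and 7.01 CPM (57 to 155 reads), and the 6 mutants had 8.27 to 13.5 CPM with a median of 8.96 (121 to 204 reads). Every mutant lay above every control, although the highest control, at 7.98, and the lowest mutant, at 8.27, were close; 1 of the 8 members did not overlap, against 2.59% of all genes (1.29% with mutants higher). Mean levels were 6.36 ± 1.92 CPM (SD, n = 5) and 9.90 ± 2.12 CPM (SD, n = 6). The log2 fold change was 0.62 (SE 0.23, 95% interval 0.12 to 1.12), or 1.54-fold higher, with an adjusted p of 0.152 (edgeR quasi-likelihood test). Mutants were higher by 1.13, 0.46, 0.12 and 0.50 log2 units in litters A to D. Control 1 was low by itself, and without it the fold change was 0.42 (adjusted p 0.201 by edgeR); without litter A it was 0.38 (adjusted p 0.347). Without control 2, the library with the most Pitx1 reads, it was 0.75.

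**Figure D3:**
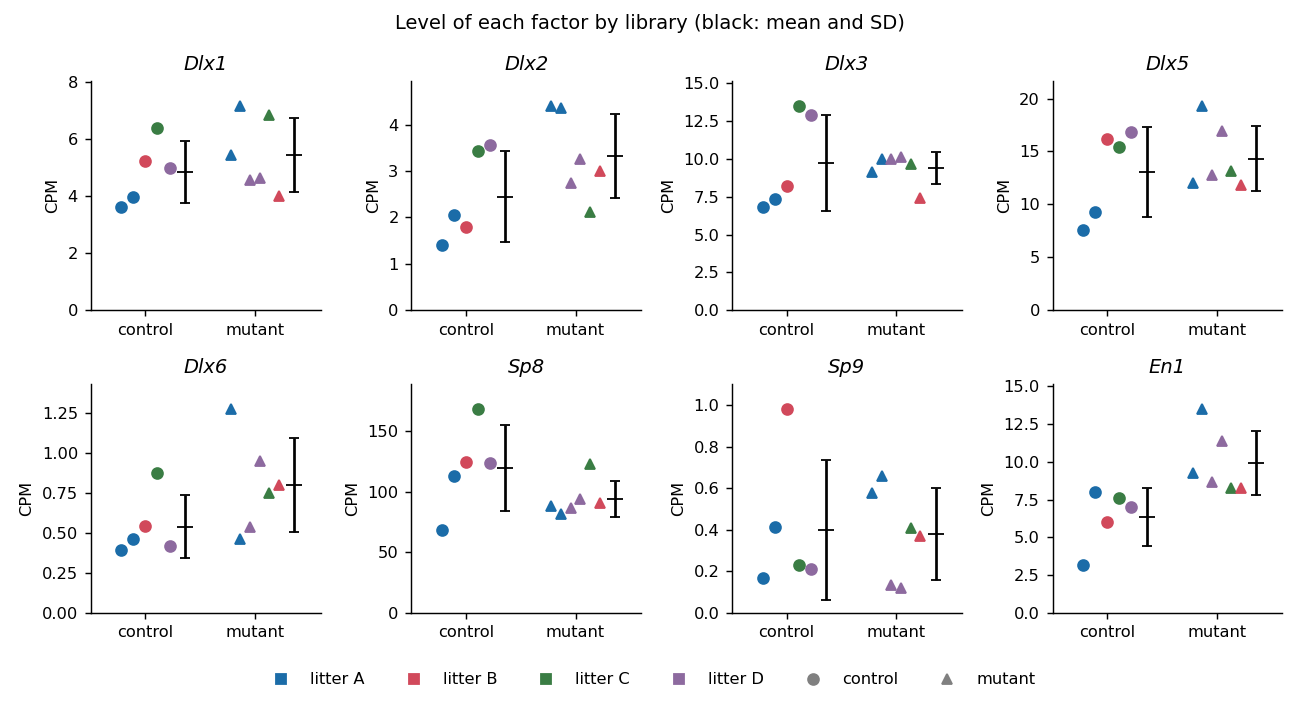
Level of each of the 8 genes tested, in CPM by library; circles are controls, triangles mutants, colours litters, and black bars the mean and SD of each group (n = 5 and n = 6). En1 mutants (8.27 to 13.5) all lie above the controls (3.19 to 7.98); in the other 7 panels the groups overlap.

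To set the members against other genes of the ectoderm, an index was taken as the mean log2 CPM of 18 surface ectoderm genes (Epcam, Cdh1, keratins, claudins and others), none of them a member. Pearson r with this index over the 11 libraries was 0.23 for En1 and 0.39 for Sp8, within a range of -0.02 (Dlx6) to 0.62 (Sp9). How well the index measures the amount of ectoderm in a bud was not tested. In controls this index ran from 3.41 to 4.12 and in mutants from 3.31 to 4.13. It was higher in the mutants of litter A by 0.34 and lower in those of litters B, C and D by 0.57, 0.72 and 0.21. Less this index, En1 stood at -1.69, -0.72, -1.51, -1.11 and -0.81 log2 units in controls 1 to 5 and at -0.48 to -0.03 (median -0.32) in mutants. The groups did not overlap, and the mutants of litters A to D were higher by 0.78, 1.02, 0.84 and 0.71, a narrower spread than for En1 alone. Less the index, the share of all genes that did not overlap, or were higher in 4 of 4 litters, was not counted. Less the index, Dlx1, Dlx5 and Dlx6 were also higher in mutants in 4 of 4 litters, with overlapping groups. The lower index of mutants in litters B, C and D raises such differences there for every gene. Before the subtraction, Dlx5 was lower in the mutants of those litters, by 0.45, 0.23 and 0.19. The median of mutants less that of controls was 0.79 for En1, 0.91 for Dlx6, 0.76 for Dlx2 and -0.11 for Sp8. With the index as a covariate, the log2 fold change of En1 was 0.82 (SE 0.18) and passed the threshold (edgeR adjusted p 0.0178), in a fit in which 1563 genes did. With an index of the 13 ridge genes in its place, a choice made after seeing the data, it was 0.61 (edgeR adjusted p 0.122).

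**Figure D4:**
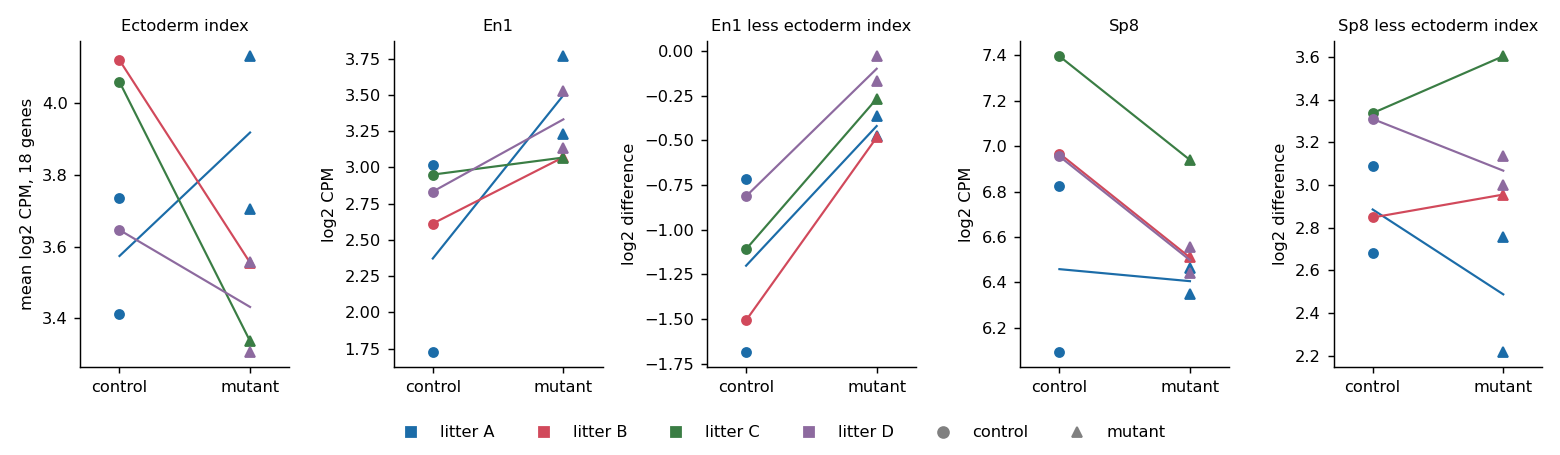
The ectoderm index (mean log2 CPM of 18 genes), the log2 CPM of En1 and Sp8, and each of these less the index, with 1 point per library and lines joining the litter means of controls and mutants. En1 less the index runs upward in all 4 litters, and Sp8 less the index runs down in litters A and D and up in B and C.

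Genes with long runs of T in their annotated transcripts were also followed, since their mean level moved with genotype. The mean log2 CPM of 959 tested genes with a T run of at least 18 bases ran from 4.45 to 4.82 over the controls and from 4.26 to 4.63 over the mutants, lower in mutants in all 4 litters. With that mean as a covariate, the log2 fold change of En1 was -0.051 (SE 0.31) and that of Sp8 was -0.56 (SE 0.17), neither past the threshold (edgeR adjusted p 0.972 and 0.340). The longest T run is 13 bases in En1 and 22 in Sp8. This covariate moves with genotype, and its part in the En1 difference was not tested further.

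Sp8 went the other way. Controls 1 to 5 had 68.1, 113.2, 125.0, 168.3 and 124.0 CPM, and mutants 81.3 to 122.6 CPM with a median of 89.5. The groups overlapped: control 1 was the lowest of all 11 libraries, and mutant 5 stood near the middle of the controls. Means were 119.7 ± 35.7 CPM (SD, n = 5) and 93.9 ± 14.7 CPM (SD, n = 6). The log2 fold change was -0.32 (SE 0.12, 95% interval -0.58 to -0.07), or 0.799 of the control level, with an adjusted p of 0.148 (edgeR quasi-likelihood test). Litter A differed by -0.05, and litters B, C and D by -0.46 each. Without control 1 the value was -0.45 and passed (edgeR adjusted p 0.0235), where 14 genes passed in all, and without control 2 it was -0.25. Between litters, Sp8 had an unadjusted p of 0.00808 (adjusted p 0.215, edgeR), the litter C embryos being the highest of each genotype; none of the 8 members passed for litter, and 0.0885% of all genes did.

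Relative to the ectoderm index, Sp8 did not show 1 direction. It was 2.68 to 3.34 log2 units above the index in controls and 2.22 to 3.60 in mutants, lower in the mutants of litters A and D by 0.40 and 0.24 and higher in those of litters B and C by 0.11 and 0.27. With the index as a covariate the log2 fold change was -0.24 (SE 0.11, edgeR adjusted p 0.187).

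**Figure D5:**
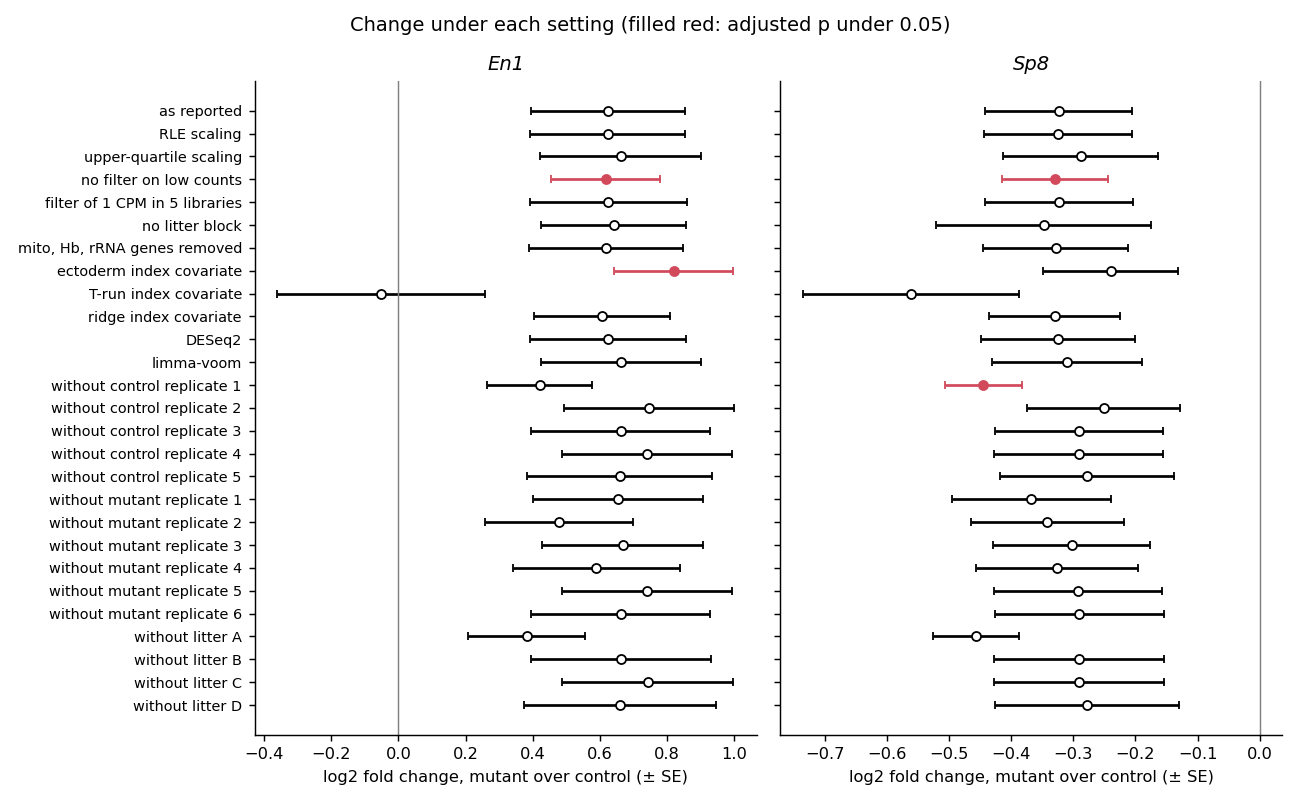
Log2 fold change (± SE) of En1 and Sp8 under each processing setting and with each library or litter left out; filled red points have an adjusted p under 0.05. En1 stays above 0 except where the T-run index is a covariate (-0.051), and Sp8 stays below 0 throughout (-0.56 to -0.24).

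Because En1 and Sp8 had the smallest p of the 9, the sequence before each gene's start is shown, from the RefSeq promoter table (GRCm38.p6, the assembly of mm10), 5′ to 3′ on the gene's own strand. Both genes are on the plus strand, En1 at chromosome 1, 120602418 to 120607992, with 2 exons, and Sp8 at chromosome 12, 118846329 to 118852578, with 3 exons (mm10, per the count table). RefSeq lists 3 starts for Sp8, and the most upstream is used. The stretch of En1 is chr1:120602237-120602417 and that of Sp8 is chr12:118846079-118846328, each ending just before the first counted exon. Capitals mark the letters of a CCAAT box (CCAAT, or ATTGG on the other strand) and of a TATA box (TATAAA, either strand).
En1: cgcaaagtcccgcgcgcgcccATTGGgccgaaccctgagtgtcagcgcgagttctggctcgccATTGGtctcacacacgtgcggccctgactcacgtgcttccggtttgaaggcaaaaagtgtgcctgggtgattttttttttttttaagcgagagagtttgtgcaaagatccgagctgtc
Sp8: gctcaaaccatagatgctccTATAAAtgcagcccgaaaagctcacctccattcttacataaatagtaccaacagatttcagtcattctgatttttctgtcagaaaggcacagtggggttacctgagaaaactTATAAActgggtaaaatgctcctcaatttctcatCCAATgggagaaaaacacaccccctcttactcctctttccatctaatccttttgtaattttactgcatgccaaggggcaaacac
The En1 stretch holds 2 ATTGG and no TATAAA, and the Sp8 stretch holds 2 TATAAA and 1 CCAAT. Among 32851 RefSeq promoter windows of 300 bases, 37.4% hold CCAAT and 13.6% hold TATAAA on either strand. A GC box (GGGCGG, the letters that Sp factors are known for) is in 35.7% and a homeodomain core (TAATTA) in 5.29%, and neither is in the 300-base window of En1 or in that of the Sp8 start used, on either strand. Of the other Sp8 starts, the next has a GC box 14 bases before it and the last has TAATTA 188 bases before it. Dlx2 and Sp9, whose windows are in the same table, have 1 GC box each before their starts. These matches describe letters and are not binding sites.

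The Sp6 count could not be read as a level. Sp6 (chromosome 11, 97013394 to 97024734, plus strand) had 4 reads in all 11 libraries, 3 in controls and 1 in mutants, and 7 libraries had 0. Of its 3841 exon bases, 3329 (86.7%) also belong to exons of Gm11532, which is annotated on the opposite strand. The command in the file header sets no option for strand or for reads over several genes; featureCounts then ignores strand and counts a read over both genes for neither, which leaves 512 exon bases of Sp6. Gm11532 itself had 21 reads. The limit that a count of 0 allows, 3 reads, is 0.154 to 0.210 CPM in these libraries and covers counting error only. For none of the other 8 members did another gene cover more than 6.21% of the exon bases (Dlx1, with Dlx1as).

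Sp9 (chromosome 2, 73271925 to 73284706), the third Sp gene of the ridge, had 2 to 18 reads per library. Controls 1 to 5 were at 0.168, 0.412, 0.981, 0.232 and 0.210 CPM, and mutants at 0.119 to 0.662 with a median of 0.389. The highest value was control 3 and the lowest mutants 3 and 4, and the groups overlapped. The log2 fold change of 0.16 had a 95% interval of -0.97 to 1.29 (edgeR adjusted p 0.900), too wide at this depth to place the level of mutants above or below that of controls.

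Dlx genes lie in the genome as convergent pairs, and 2 of the 3 mouse pairs are complete among the members. Dlx1 and Dlx2 are 9.43 kb apart on chromosome 2, and Dlx6 and Dlx5 are 9.24 kb apart on chromosome 6. Dlx5 was the most abundant Dlx gene. It was at 7.55, 9.32, 16.2, 15.4 and 16.8 CPM in controls 1 to 5 and at 11.8 to 19.3 CPM (median 12.9) in mutants. Controls 1 and 2, both of litter A, were the lowest of the 11 libraries, mutant 2 of the same litter was the highest, and the groups overlapped. The log2 fold change was 0.15 (95% interval -0.32 to 0.61, edgeR adjusted p 0.741). In litter A mutants were higher by 0.85, and in litters B, C and D they were lower by 0.45, 0.23 and 0.19.

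Its partner Dlx6 had 6 to 22 reads per library. Levels were 0.392, 0.463, 0.545, 0.871 and 0.420 CPM in controls 1 to 5 and 0.463 to 1.27 CPM (median 0.775) in mutants, highest in mutant 1. The log2 fold change of 0.63 was as large as that of En1, but its 95% interval ran from -0.24 to 1.50 (edgeR adjusted p 0.392). Without mutant 1 it was 0.32 (edgeR adjusted p 0.704). Per kb, Dlx5 exceeded Dlx6 in every library, by 18.5 to 42.0 times in controls (median 21.1) and 9.92 to 43.6 times in mutants (median 18.5).

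Dlx1 and Dlx2, better known from forebrain interneurons and the branchial arches, were at nearly equal levels per kb: Dlx1 over Dlx2 was 0.737 to 1.54 in controls and 0.654 to 1.71 in mutants. Dlx1 was at 3.64, 3.96, 5.23, 6.39 and 4.98 CPM in controls 1 to 5 and at 3.99 to 7.14 CPM (median 5.04) in mutants, a log2 fold change of 0.19 (95% interval -0.22 to 0.60, edgeR adjusted p 0.606). Dlx2 was at 1.40, 2.06, 1.80, 3.43 and 3.57 CPM in controls and at 2.12 to 4.40 CPM (median 3.14) in mutants, a log2 fold change of 0.44 (95% interval -0.21 to 1.09, edgeR adjusted p 0.425). The 2 highest Dlx2 values were the mutants of litter A. There the difference was 1.31, against 0.70, -0.66 and -0.24 in litters B to D. Without litter A the values were -0.13 for Dlx1, -0.092 for Dlx2 and -0.28 for Dlx5, none past the threshold (edgeR adjusted p 0.792, 0.921 and 0.395).

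Dlx3 is an ectodermal and placental factor. Controls 1 to 5 were at 6.82, 7.36, 8.23, 13.5 and 12.9 CPM, and mutants at 7.42 to 10.2 CPM with a median of 9.85. The mutants lay inside the control range. The log2 fold change was -0.05 (edgeR adjusted p 0.883), and its 95% interval of -0.37 to 0.27 was the narrowest among the Dlx genes. Its neighbour Dlx4, 15.2 kb away on chromosome 11, is not a member; it averaged 2.85 ± 1.29 CPM over the controls (SD, n = 5) against 3.56 ± 1.36 CPM over the mutants (SD, n = 6) (log2 fold change 0.29, edgeR adjusted p 0.617).

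The Dlx genes shared 1 direction in litter A, but not they alone. Within it, the mean of mutants 1 and 2 exceeded that of controls 1 and 2 for Dlx1, Dlx2, Dlx3, Dlx5 and Dlx6, and the ectoderm index and Fgf8 (by 0.80) did so too. En1 (1.13), Sp9 (0.92) and Dlx4 (0.84) were also higher there, and Sp8 was at -0.05. The share of all genes higher in litter A, or lower in litters B to D, was not counted. In litters B to D, 11 of the 15 differences of these 5 genes were below 0. Whether the effect of genotype differed between litters was not tested.

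Among the other Sp genes, Sp4 came nearest to the threshold. It averaged 10.1 ± 2.29 CPM over the controls (SD, n = 5) against 7.06 ± 1.54 CPM over the mutants (SD, n = 6), which is -0.48 on the log2 scale (SE 0.13; adjusted p 0.0675 in edgeR's test), lower in 4 of 4 litters. It passed with DESeq2 (adjusted p 0.0293), with no filter on low counts and with the ectoderm index as a covariate. Those settings called 1194, 1566 and 1563 genes in all, against 345. With 1 library left out, Sp4 passed in 0 of 11 fits (lowest edgeR adjusted p 0.0838). The general factors Sp1, Sp2 and Sp3 were at 5.76, 6.41 and 8.13 CPM per kb, below Sp8, and Sp5 and Sp7 at 0.462 and 0.324. The antisense transcripts Dlx1as and Dlx6os1 had 65 and 106 reads in all, Dlx6os2 had 0 and En2 had 6.

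The partners of these factors in the ridge and in the dorsoventral axis gave no call either. Of 13 ridge genes, 0 passed at an adjusted p of 0.05, against 2.18% of all genes. At an unadjusted p under 0.05 (edgeR) there were 0, against 21.4%. In direction, 8 were above 0 and 5 below, with a median log2 fold change of 0.09. Fgf8, the main ridge ligand and a target of Sp8, was named for that role rather than by the rule for naming genes. It averaged 10.9 ± 3.55 CPM over the controls (SD, n = 5) against 11.2 ± 4.13 CPM over the mutants (SD, n = 6) (log2 fold change 0.04, SE 0.25, edgeR adjusted p 0.947). Bmp7, a ridge and mesenchyme ligand, had 0.11 (adjusted p 0.429), and Trp63, the p63 gene of stratified ectoderm, had -0.19 (adjusted p 0.580), by the same edgeR test.

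Of 18 surface ectoderm genes, 0 passed, against 2.18% of all genes, and 1 had an unadjusted p under 0.05 (edgeR), against 21.4%. In direction, 6 were above 0 and 12 below, with a median of -0.17. The 2 most abundant were the simple keratin Krt18 (log2 fold change -0.12, edgeR adjusted p 0.793) and the tight junction gene Cldn6 (0.08, edgeR adjusted p 0.853). Their summed level was 313.9 to 513.9 CPM over the list in controls and 320.5 to 580.6 CPM in mutants.

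Wnt7a and Lmx1b, the dorsal genes downstream of En1, were named for that role. Wnt7a, which En1 is known to repress, averaged 7.41 ± 2.94 CPM over the controls (SD, n = 5) against 8.59 ± 1.19 CPM over the mutants (SD, n = 6), or 0.24 on the log2 scale (SE 0.18; 95% interval -0.15 to 0.63; adjusted p 0.482 in edgeR's test). Lmx1b, the dorsal mesenchyme factor, had -0.14 (SE 0.08, edgeR adjusted p 0.362). Upstream, Bmp4 had 0.21 (SE 0.09, edgeR adjusted p 0.223) and Ctnnb1, the beta-catenin gene of Wnt signalling, 0.15 (SE 0.07, edgeR adjusted p 0.263). Of the 7 genes of this list, 0 passed, against 2.18% of all genes. At an unadjusted p under 0.05 (edgeR) there was 1, Bmp4, against 21.4% of all genes. In direction, 5 were above 0 and 2 below, and the median was 0.09.

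En1 is also made in somites and in the brain, so the markers of nearby tissues were set beside it. Of 7 muscle precursor and dermomyotome genes, 0 passed, against 2.18% of all genes, and 4 were above 0. Their summed level was 75.2 to 126.9 CPM in controls and 75.3 to 126.7 CPM in mutants. At an unadjusted p under 0.05 (edgeR) there were 2, against 21.4% of all genes. Those 2, named after their values were seen, were Lbx1, a gene of migrating muscle precursors, and Myf5, a gene of muscle determination. Lbx1 was higher in mutants in 4 of 4 litters (log2 fold change 0.82, SE 0.23, edgeR adjusted p 0.0696) and Myf5 lower in 4 of 4 (-1.25, SE 0.43, edgeR adjusted p 0.130), with overlapping groups. Of 7 neural tube and neuron genes, 2 were tested. The untested Olig2, Sox1, Neurog1, Pax6 and Elavl3 had 0, 1, 3, 22 and 35 reads over all libraries, all but Pax6 with libraries at 0. The summed level was 44.1 to 64.9 CPM in controls and 37.3 to 65.2 CPM in mutants. Within it, Tubb3 averaged 42.4 CPM in controls and 36.6 CPM in mutants, and Stmn2 7.88 and 11.5 CPM. Of those tested, the neuronal gene Stmn2 was higher in 4 of 4 litters (log2 fold change 0.58, SE 0.17, edgeR adjusted p 0.0764), and Tubb3 had -0.22 (edgeR adjusted p 0.563). Of neural crest and Schwann precursor genes, 7 of 9 were tested and all 7 were below 0, with a median of -0.48. Of these 7, 0 passed and 3 had an unadjusted p under 0.05 (edgeR), against 2.18% and 21.4% of all genes. The sums were 47.7 to 78.9 CPM in controls and 20.3 to 61.5 CPM in mutants. Within them, Tfap2b averaged 34.0 CPM in controls and 24.4 CPM in mutants, and Sox10 1.24 and 0.723 CPM. The part of muscle, neural and crest cells in the members' levels was not tested. The 10 limb mesenchyme genes had 0 passing and a median of 0.06. At an unadjusted p under 0.05 (edgeR) there were 6 of them, 4 higher and 2 lower in mutants, against 21.4% of all genes.

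Over the 11 libraries, the members varied together to different degrees. Among the 28 pairs of tested members, Pearson r of log2 CPM was -0.26 to 0.77 with a median of 0.40, as a description over libraries that share litters and scaling. Dlx1, Dlx2, Dlx3 and Dlx5 had 0.48 to 0.71 among themselves (6 pairs), the highest value of all was between Dlx2 and En1 (0.77), and Sp8 and En1 had 0.08. Of 13255 other genes, the most like En1 was Rpp30 (r 0.94), and the most like Sp8 was Chmp3 (r 0.90). For Dlx3 it was Nif3l1 (r 0.94), and for Dlx5 it was Frem2 (r 0.90). The most like Dlx2 was Uimc1 (r 0.95) and the most like Dlx1 was Banp (r 0.87). These genes were named only as the most alike in profile. Each r is the highest of 13255 over 11 libraries, and how high such a maximum runs for unrelated genes was not tested.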

How the data were processed

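Forelimb bud RNA of 11 samples was sequenced after ribosomal RNA depletion, per the labels' protocols. The authors deposited counts of reads by gene name, not normalized, made with featureCounts 1.4.6-p4 on mm10 and GENCODE M9 at a mapping quality of at least 10, with no strand option, per the file headers; STAR 2.5.4b is named in the submitters' processing notes. The deposited exon length of each gene, per the file headers, gave CPM per kb.

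Genes were filtered with edgeR's filterByExpr (15821 kept, 99.9% of counts), scaled by TMM and tested with edgeR 4.0.16 (R 4.3.3) by two-sided quasi-likelihood F tests of genotype with litter in the model; p-values were adjusted over all genes (Benjamini-Hochberg, threshold 0.05). Log2 CPM used a prior count of 2, and intervals are 95% from the same test. The pairing is by litter, from the titles and the design text. Deviations from group means correlated at a median of 0.13 within and -0.02 between litters. No libraries of a group agreed within sampling noise (chi-square over its degrees of freedom was at least 6.82 in 25 pairs).

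Members and lists were chosen with earlier results of these data known. The naming rule took the members, list genes past the threshold or else the 2 most abundant per list, family members and the 3 genes most like each member (mean of at least 1 CPM), of which some are printed. Motifs were chosen with no rule set in advance. Alternatives were RLE and upper-quartile scaling, 2 other filters, DESeq2 1.42.0, limma-voom (limma 3.58.1), no litter block, removal of haemoglobin, ribosomal RNA and mitochondrial genes, an ectoderm covariate, and each library or litter left out; T-run and ridge covariates were added after seeing the data.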

Additional observations from a re-analysis of the deposited data

Results flagged for a closer look

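In 84 comparisons of the highest or lowest library of a group with the spread of the others (21 measures, 2 groups), 3 stood apart, where chance gives about 2.1. Mutant 6 was low in Dlx3, at 2.92 log2 CPM, where the other mutants had 3.21 to 3.36. Mutant 5 was high in Sp8, at 6.94 log2 CPM, where the other mutants had 6.35 to 6.56. Without it the log2 fold change of Sp8 was -0.29. Litter C holds only control 4 and mutant 5, so leaving out mutant 5 also takes control 4 out of the comparison within litters. Control 4 had the highest Sp8 level of the controls, at 7.40 log2 CPM, and without it the value was -0.29 as well. Control 5 was low in the mean log2 CPM of genes with long T runs, at 4.45, where the other controls had 4.72 to 4.82.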

How the results depend on the processing

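Genes called over all genes numbered 345, and the count moved with every gene kept (1566), a minimum of 1 CPM in 5 libraries (550), DESeq2 (1194), the ectoderm index as a covariate (1563) and, added after seeing the data, the T-run index (2). Leaving out 1 library gave 1 (without control 4 or mutant 5) to 850 (without control 5), and leaving out litters A to D gave 9, 3, 1 and 148. With no litter block, the paired design being dropped, 16 genes and no member passed, En1 at 0.64 (edgeR adjusted p 0.114) and Sp8 at -0.35 (edgeR adjusted p 0.263). Upper-quartile scaling called 155 higher and 205 lower, against 111 and 234. The number of members called was 0, but 2 with every gene kept (En1 0.62, Sp8 -0.33, edgeR adjusted p 0.00498 and 0.00400), 1 with the ectoderm index (En1 0.82) and 0 to 1 with 1 library left out (Sp8 without control 1, -0.45). Over the libraries left out, En1 ran from 0.42 to 0.75 and Sp8 from -0.45 to -0.25. The cause of these shifts was not tested.

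Directions reversed as follows, in log2 units and with the cause not tested. With the T-run index, Dlx1 was at -0.30, Dlx2 -0.39, Dlx5 -0.60, Sp9 -0.66, En1 -0.051, Dlx4 -0.50, Fgf8 -0.11, Bmp7 -0.045, Cldn6 -0.59, Wnt7a -0.41 and Bmp4 -0.031. Without litter A, Dlx1 was at -0.13, Dlx2 -0.092, Dlx5 -0.28, Dlx4 -0.049, Fgf8 -0.45, Cldn6 -0.40 and Wnt7a -0.036. Dlx3 was at 0.061 with the ectoderm index, 0.050 without litter C and 0.057 without litter D. Leaving out 1 library spanned 0 for Dlx3 (-0.14 to 0.056), Dlx5 (-0.055 to 0.29), Sp9 (-0.15 to 0.62), Fgf8 (-0.16 to 0.32), Krt18 (-0.32 to 0.076) and Cldn6 (-0.066 to 0.24). Sp8 kept its direction in all 26 alternatives and Dlx6 in the 24 that gave it a value. With 1 library left out, Dlx6 ran from 0.32 to 0.85, lowest without mutant 1. Sp9 had a value in 22. These alternatives were not all distinct. For litters B and C, leaving out the control, the mutant or the litter leaves the same contrast within litters. For litter D, the same holds for leaving out the control or the litter. The counts therefore overstate the number of separate checks. Less the ectoderm index, the median difference of En1 was 0.65 to 0.99 and that of Sp8 -0.22 to 0.01 with 1 library left out. Few reads limit Dlx6 (6 to 22 per library), Sp9 (2 to 18) and Sp6 (0 to 1).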

Other observations

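Blood and vessel genes were measured beside the ectodermal ones, and none passed the threshold, against 2.18% of all genes. Of 7 red blood cell genes, 7 were above 0 with a median log2 fold change of 0.54, and haemoglobin genes took 1.34% to 5.44% of counts, most in mutant 2. Of 6 macrophage genes, 5 were above 0 with a median of 0.39, from summed levels of 0.631 to 18.6 CPM in controls and 3.21 to 20.4 CPM in mutants. Of 6 endothelial genes, 3 were above 0 with a median of 0.01. Per kb, En1 exceeded 7 of 13 ridge genes and 0 of 10 mesenchyme genes, and Sp8 exceeded 8 of 10 mesenchyme genes.

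Less the ectoderm index, the medians of mutants exceeded those of controls by 0.25 for Dlx1, 0.76 for Dlx2, 0.27 for Dlx3, 0.37 for Dlx5, 0.91 for Dlx6 and 0.67 for Sp9. The mutants were higher in 4 of 4 litters for Dlx1, Dlx5 and Dlx6, in 3 for Dlx2 and Dlx3, and in 2 for Sp9. The index itself was lower in the mutants of litters B, C and D, which raises these differences there. The share of all genes with such a direction was not counted.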
